A study of Mus musculus with 8 samples.

Results

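The integrated stress response and the unfolded protein response of the endoplasmic reticulum (ER) were followed at the level of RNA through 42 genes in mouse testes from a valine group and from a control group; valine is an essential amino acid with a branched side chain. The genes were taken by name from a list, and all 42 were found among the 55414 genes of the deposited table. They comprise 7 genes of eIF2a, its kinases and its phosphatase subunits, 8 genes of ATF4 and the factors it drives or works with, 4 genes of the ER sensors, 9 genes of ER-associated degradation (ERAD), 11 general folding factors and 3 folding factors of germ cells. Whole-testis RNA was sequenced from 4 valine and 4 control samples, and levels are given as FPKM (fragments scaled to gene length and to the mapped total of the library). Strain, age, and the dose, route and length of the valine treatment are not stated in the labels, nor is it stated that each sample is its own animal. The p-values therefore reflect the spread among these libraries alone, and part of it may be technical.

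The integrated stress response converges on phosphorylation of the translation factor eIF2a, which lowers general protein synthesis while favouring translation of the transcription factor ATF4. Its kinases answer to different signals: HRI to heme shortage, PKR to double-stranded RNA, PERK to misfolded proteins in the ER, and GCN2 to uncharged tRNA when amino acids run short. The unfolded protein response adds the sensors IRE1 and ATF6, which raise chaperones and the ERAD machinery that removes misfolded proteins. Developing male germ cells make many secreted and membrane proteins and use chaperones of their own in the ER. Phosphorylation of eIF2a, splicing of Xbp1 and cleavage of ATF6 were not measured here.

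The libraries had relative depths of 0.866 to 0.992 in valine samples and 0.870 to 1.00 in control samples, read from the whole-fragment steps of low FPKM values and set against control replicate 1. Absolute depth was unknown. Markers of testis cell types were present in every sample: elongating spermatid markers summed to 62319 to 75033 FPKM in valine and 49803 to 51990 FPKM in control samples, and 17 Sertoli markers to 1203 to 1315 FPKM in valine and 1198 to 1329 FPKM in control samples. The 13 Leydig markers summed to 557 to 869 FPKM in valine and 1726 to 2463 FPKM in control samples, the 11 macrophage markers to 48.9 to 64.9 FPKM in valine and 111.1 to 132.9 FPKM in control samples, and the 12 stroma and myoid markers to 52.9 to 67.5 FPKM in valine and 111.3 to 160.7 FPKM in control samples. In valine testes 11 of 13 Leydig, 6 of 10 tested macrophage and 7 of 12 stroma and myoid markers fell, and 10 of 14 elongating spermatid markers rose. The 14 spermatocyte markers summed to 7881.5 to 8718 FPKM in valine and 6963 to 7419 FPKM in control samples, and 3 of them rose and 1 fell. Sums of round spermatid and of spermatogonia markers overlapped between the groups, but single markers passed. Of 12 round spermatid markers 3 rose and 1 fell, and of 10 spermatogonia markers 2 fell (Kit and Zbtb16) and 0 rose. Of the 17 Sertoli markers 2 rose and 1 fell. No marker of these lists was at 0 in every sample. The 8 adipocyte markers summed to 33.9 to 41.6 FPKM in valine samples and to 31.9 to 42.04 FPKM in control samples other than control replicate 1, which had 93.5 FPKM. Adipoq alone averaged 34.4 FPKM in valine and 30.9 FPKM in control samples. Of the 6 tested adipocyte markers, 5 had a negative change and 1, Adipoq, a positive one. Plin1 fell (0.664 FPKM in valine and 2.21 FPKM in control samples). Cfd and Car3 were also lower in every valine sample than in every control sample but did not pass. Plin1, Cfd and Car3 had valine means under 1 FPKM and reached a mean of 1 FPKM only through the control samples. In whole tissue, fewer cells of a type and less RNA per cell cannot be told apart. The part of these marker shifts in the changes of single genes given below was not tested.

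Of the 42 genes, 39 had a mean of at least 1 FPKM and were tested with all other such genes by limma on log2(FPKM + 1), with Benjamini-Hochberg adjustment over 22077 genes at 0.05. In valine testes 3 members rose (Ddit3, Herpud1 and Manf) and 3 fell (Ern1, Sel1l and Edem1), while 33 did not pass. These 6 are 15.4% of the tested members, against 8.73% of all tested genes. By direction, 7.69% of the members rose against 4.32% of all tested genes, and 7.69% fell against 4.41%. The median log2 change was 0.01 over the members and 0.02 over all tested genes. The 2 groups of samples did not overlap for 13 members, 8 lower and 5 higher in valine (33.3%, against 18.4% of all tested genes; 9.39% lower and 8.99% higher). The FPKM totals over all genes were 1027662 to 1070524 in valine and 944659 to 974626 in control samples, without overlap. After rescaling to equal totals, which shifted the median change of all genes by -0.10, 1 member was higher and 7 lower, where 1.64% of all tested genes were higher and 9.16% lower. With quantile normalisation 1 member was higher and 3 lower, where 1.8% of all tested genes were higher and 4.66% lower.

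**Figure D1:**
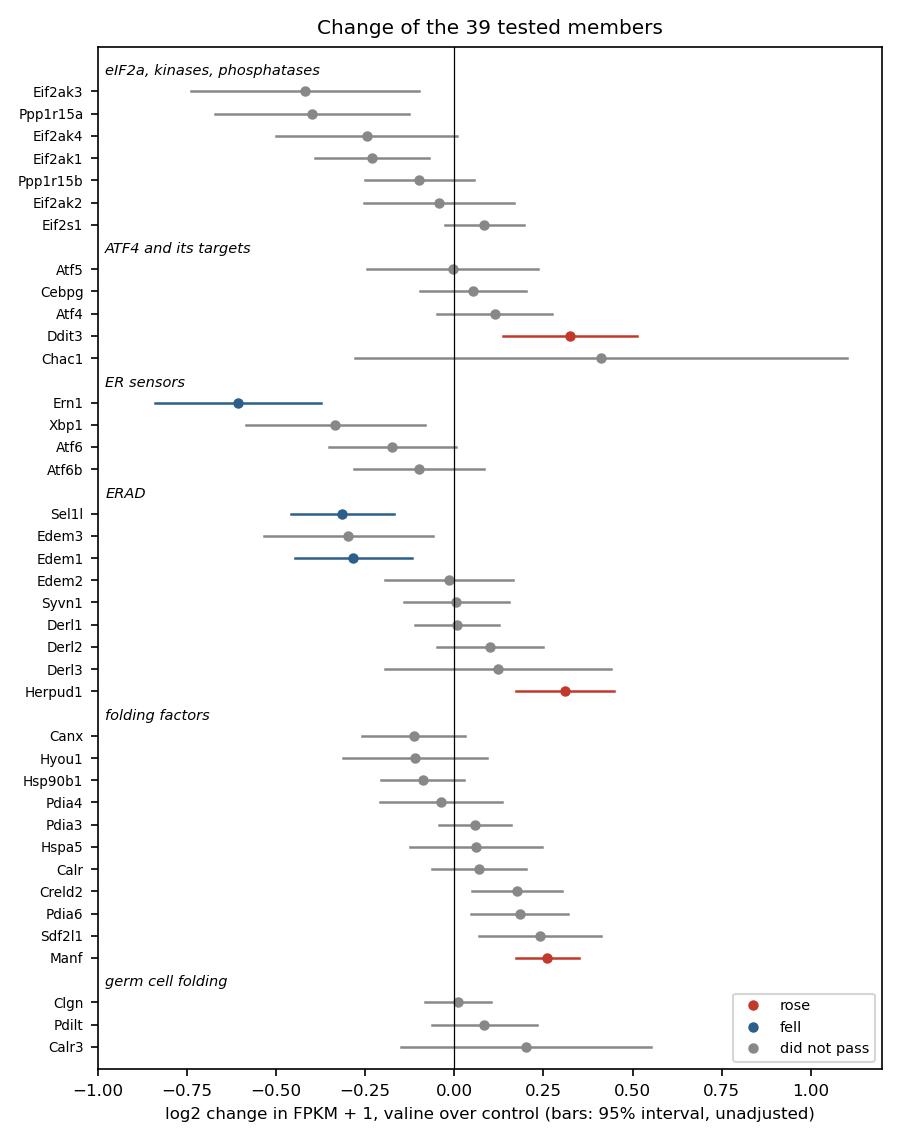
Log2 change in FPKM + 1 (valine over control) of the 39 tested members by role, with points for the limma estimate and bars for its unadjusted 95% interval. Red points rose and blue points fell at a limma adjusted p below 0.05. Ern1 lies farthest to the left at -0.61, and Ddit3, Herpud1 and Manf lie between 0.26 and 0.32.

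Levels differed widely between roles. On the FPKM scale, which is per length, Clgn, the calnexin of germ cells, was the most abundant member with a mean of 490.8 FPKM over the 8 samples, followed by the chaperone Calr (445.8 FPKM) and by Creld2, an ER protein induced by ER stress (361.8 FPKM). The 11 general folding factors had mean levels of 40.7 to 445.8 FPKM, with a median of 113.2 FPKM, and the 3 germ cell forms had 161.6 to 490.8 FPKM. The ER sensors lay far lower, between 4.59 and 24.8 FPKM, and the eIF2a kinases and their partners between 1.58 FPKM (Eif2ak3) and 80.9 FPKM (Eif2s1). The ERAD genes had mean levels of 9.45 to 237.4 FPKM, with Herpud1 highest among them.

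**Figure D2:**
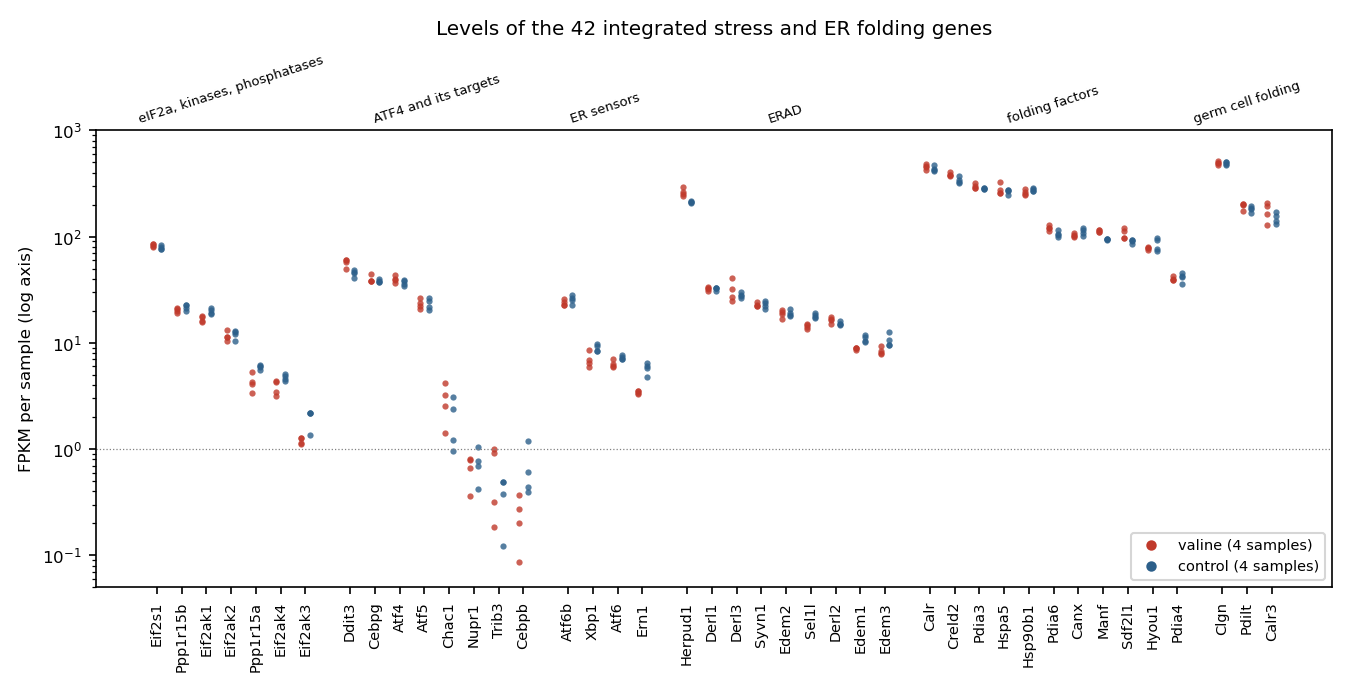
FPKM of the 42 members in each sample on a log axis, ordered by mean level within each role, with red points for the 4 valine samples and blue points for the 4 control samples. Folding factors lie between about 36.1 and 509.9 FPKM, while Nupr1, Trib3 and Cebpb lie near or below the dotted line at 1 FPKM.

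The sequences before the transcription starts show which members carry known stress elements. The ER stress response element (ERSE, CCAAT and CCACG with 9 bases between them) is read by ATF6 and XBP1, ERSE-II (ATTGG and CCACG with 1 base between them) is a variant of it, the core of the unfolded protein response element is TGACGTGG, and TGATGNAAN is the composite element of C/EBP and ATF factors that ATF4 can bind. These letters were searched on both strands of the 250 bases before each start in RefSeq (GRCm38.p6), where 36 members had a promoter, and none of the matches in members overlapped another. Manf, Clgn, Atf6, Derl1, Ppp1r15b and Hyou1 had no promoter there and were not searched. ERSE was found in 8 of the 36 members (22.2%: Hspa5, Hsp90b1, Syvn1, Derl3, Calr, Canx, Pdia6 and Creld2), against 0.13% of 27025 genes, and ERSE-II in Herpud1, against 0.037% of genes. The core element TGACGTGG was in none of the 36, against 0.603% of genes, and TGATGNAAN was in 3 (8.33%: Chac1, Nupr1 and Herpud1), against 3.89% of genes. The members were listed by name as genes of these responses, so a higher share than among all genes follows from that choice. The shares only describe the list. A match describes letters and is no measure of binding, and the absence of a match says only that these letters are not in this window. Shown here are Herpud1 and Ddit3, which rose and have starts in the table, and Hspa5 and Creld2, which carry ERSE and did not pass. Each is the transcribed strand's sense sequence read 5′ to 3′ up to the base before the start, with matches in capitals.
Herpud1 (chr8:94386179-94386428, plus strand): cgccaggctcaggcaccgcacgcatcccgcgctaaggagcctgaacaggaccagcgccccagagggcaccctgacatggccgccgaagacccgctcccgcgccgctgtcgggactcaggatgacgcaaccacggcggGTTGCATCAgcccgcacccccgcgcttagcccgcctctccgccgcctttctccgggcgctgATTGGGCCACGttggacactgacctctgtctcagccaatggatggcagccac
Ddit3 (chr10:127290543-127290792, plus strand): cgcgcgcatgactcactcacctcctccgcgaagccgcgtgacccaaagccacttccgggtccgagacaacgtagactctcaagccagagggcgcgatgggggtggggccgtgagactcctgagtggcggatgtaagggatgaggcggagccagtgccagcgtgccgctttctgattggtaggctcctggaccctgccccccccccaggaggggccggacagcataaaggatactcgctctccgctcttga
Hspa5 (chr2:34771840-34772089, plus strand): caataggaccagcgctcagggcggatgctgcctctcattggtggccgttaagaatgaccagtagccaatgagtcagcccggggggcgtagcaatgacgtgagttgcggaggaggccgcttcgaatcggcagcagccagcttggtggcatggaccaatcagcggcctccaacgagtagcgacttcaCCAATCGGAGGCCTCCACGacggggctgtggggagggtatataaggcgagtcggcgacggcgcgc
Creld2 (chr15:88819396-88819645, plus strand): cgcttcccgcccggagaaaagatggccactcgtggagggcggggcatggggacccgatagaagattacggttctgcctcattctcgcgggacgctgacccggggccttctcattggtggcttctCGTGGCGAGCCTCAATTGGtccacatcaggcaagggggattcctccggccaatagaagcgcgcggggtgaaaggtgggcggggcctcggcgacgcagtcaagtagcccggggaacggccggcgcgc
The capitals mark TGATGNAAN on the reverse strand 113 bases and ERSE-II 52 bases before the start of Herpud1. They mark ERSE 65 bases before the start of Hspa5 and, on the reverse strand, 126 bases before that of Creld2. The window of Ddit3 held none of the 4 motifs.

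Transcripts of eIF2a and of its 4 kinases did not pass the test over all 8 samples. Eif2s1, which encodes eIF2a itself, averaged 83.3 ± 2.37 FPKM in valine and 78.5 ± 3.54 FPKM in control testes (mean ± SD, n = 4 each, as throughout). All 4 kinases had lower means in valine, where 10242 of the 22077 tested genes had a negative change. Eif2ak4 (GCN2, the sensor of amino acid shortage) averaged 3.83 ± 0.597 FPKM in valine and 4.71 ± 0.309 FPKM in control testes (limma adjusted p = 0.209), and Eif2ak2 (PKR) 11.6 ± 1.14 FPKM in valine and 12.01 ± 1.07 FPKM in control testes. Eif2ak1 (HRI) had 16.2, 17.4, 17.9 and 15.7 FPKM in the valine samples, below the 21.4, 20.4, 19.1 and 18.7 FPKM of the control samples, with no overlap (log2 change -0.23 ± 0.070 SE, limma adjusted p = 0.0793). Eif2ak3 (PERK) had 1.27, 1.14, 1.27 and 1.12 FPKM in the valine samples and 2.16, 2.19, 2.16 and 1.35 FPKM in the control samples. Valine and control did not overlap for Eif2ak3 either, but control replicate 4 stood close to the valine samples (limma adjusted p = 0.102, and 0.0446 without that library). Eif2ak1 passed with equal totals (limma adjusted p = 0.0308). Exons of 17 members overlap those of other gene records. For pairs of exons on opposite strands the overlap reached 487 bases for Eif2ak1 with Aimp2 and 221 bases for Eif2ak3 with Gm43292.

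The phosphatase subunits that restore translation did not pass either. Ppp1r15a (GADD34), the inducible subunit and a target of ATF4 and CHOP, had 3.38, 5.34, 4.12 and 4.24 FPKM in the valine samples and 5.90, 6.22, 5.50 and 5.99 FPKM in the control samples. Every valine sample lay below every control sample, and the change did not pass (log2 change -0.40 ± 0.12 SE, limma adjusted p = 0.0749), although it did with equal totals (0.0361) and without valine replicate 2 (0.0410). Ppp1r15b, the constitutive subunit, averaged 20.2 ± 1.03 FPKM in valine and 21.7 ± 1.40 FPKM in control testes, with overlap. Within samples the log2 ratio of Ppp1r15a to Ppp1r15b averaged -2.02 ± 0.176 in valine and -1.72 ± 0.145 in control testes, a difference of -0.30 (two-sided exact permutation test over 70 arrangements, p = 0.0857, and 0.286 adjusted over the 4 ratios tested).

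Among ATF4 and the factors around it, 1 of the 5 tested genes rose and none fell. Ddit3 (CHOP), the transcription factor that links lasting ER stress to cell death, had 60.7, 49.2, 58.1 and 59.7 FPKM in the valine samples and 48.5, 40.8, 44.9 and 46.7 FPKM in the control samples. Valine replicate 2 lay just above control replicate 1, so the groups were separated by a narrow gap. The change was 0.32 ± 0.082 SE on the log2 scale, a 1.25-fold rise in FPKM + 1 (limma adjusted p = 0.0469). That call was close to the threshold: it was lost when any of 7 libraries was left out (limma adjusted p = 0.0740 to 0.118) and kept without valine replicate 2 (0.0248), and it was lost without the expression filter (0.0801), with equal totals (0.134), with quantile normalisation (0.0886) and with the trend on length removed (0.136). Exons of Ddit3 on chromosome 10 overlap those of Mars on the opposite strand by at most 68 bases per pair of exons, and a further short record named Ddit3 was listed at 0 in every sample. Whether reads were counted by strand is not stated. The rise of Ddit3 ran beside the higher sums of elongating spermatid and spermatocyte markers, whose median log2 changes were 0.29 and 0.15. Their part in it was not tested.

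Atf4 itself, the central transcription factor of the response, had 40.3, 38.9, 36.5 and 43.6 FPKM in the valine samples and 35.6, 38.5, 38.8 and 34.0 FPKM in the control samples. The groups overlapped, and the log2 change was 0.11 with a 95% interval of -0.05 to 0.27 (limma adjusted p = 0.363). Its relatives Atf5 (23.2 ± 2.55 FPKM in valine and 23.3 ± 2.79 FPKM in control testes) and Cebpg, a dimer partner of ATF4 (39.9 ± 3.23 FPKM in valine and 38.4 ± 1.33 FPKM in control testes), also overlapped. Chac1, a glutathione-degrading enzyme and an ATF4 target, ranged from 1.41 to 4.17 FPKM in valine and from 0.955 to 3.08 FPKM in control samples. Its spread within groups exceeded the difference between them (log2 change 0.41, 95% interval -0.28 to 1.10, limma adjusted p = 0.439).

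Trib3, Cebpb and Nupr1 fell below the expression filter and were not tested in the main comparison. Trib3, a pseudokinase induced by ATF4 and CHOP, had 0.992, 0.923, 0.186 and 0.319 FPKM in the valine samples and 0.123, 0.493, 0.488 and 0.376 FPKM in the control samples. Valine replicates 1 and 2 were above all others, and the remaining valine samples lay within the control range. Scaled by relative depth, these values stood as 14, 14, 3 and 5 fragments in valine and 2, 7, 7 and 6 fragments in control samples (the smallest whole numbers that matched within 0.04 fragments, so true numbers may be multiples). Cebpb, a transcription factor induced by stress and inflammation, had 0.200, 0.372, 0.0870 and 0.270 FPKM in the valine samples and 0.606, 1.195, 0.394 and 0.443 FPKM in the control samples. These correspond to 2, 4, 1 and 3 fragments in valine and 7, 12, 4 and 5 fragments in control samples, so the separation of the groups rests on few fragments (without the filter, log2 change -0.41, limma adjusted p = 0.235). Nupr1, a small stress-induced chromatin protein, ranged from 0.359 to 0.808 FPKM in valine and from 0.417 to 1.04 FPKM in control samples.

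**Figure D3:**
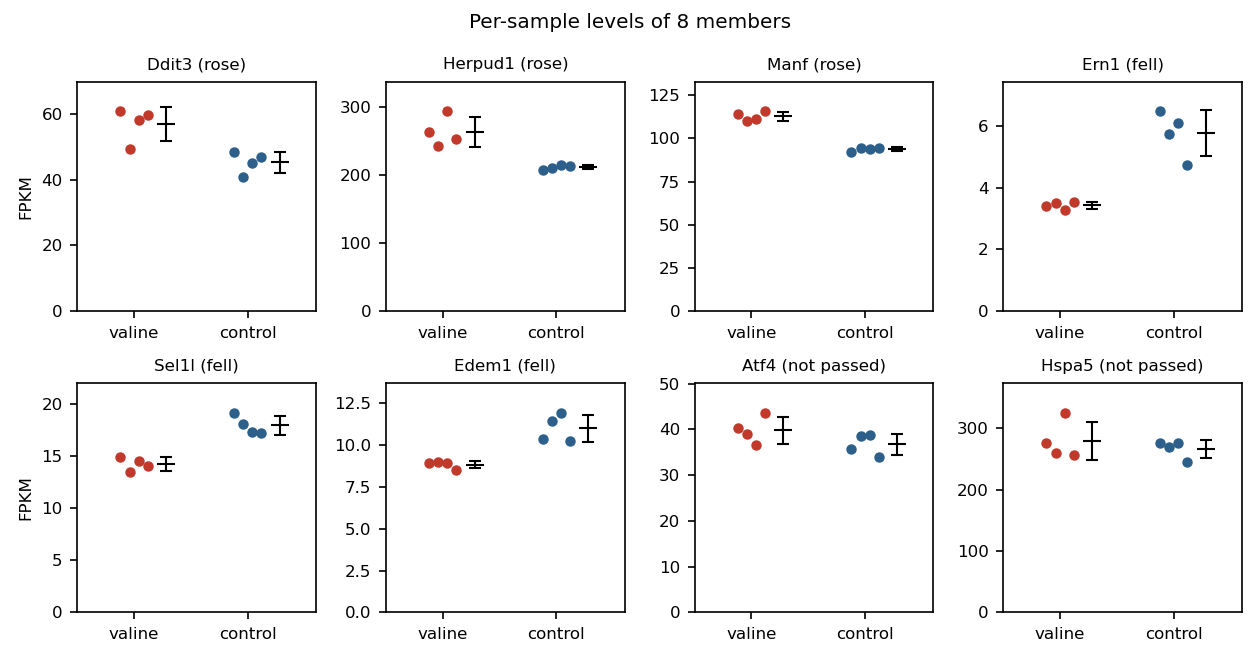
FPKM of 8 members in each sample, with valine samples left and control samples right and the mean with its SD beside the points. The groups are separate for Ddit3, Herpud1, Manf, Ern1, Sel1l and Edem1 and overlap for Atf4 and Hspa5.

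Of the ER sensors, Ern1 fell and the other 3 did not pass. Ern1 (IRE1), the sensor whose RNase domain splices Xbp1 mRNA, had 3.39, 3.50, 3.28 and 3.53 FPKM in the valine samples and 6.47, 5.73, 6.11 and 4.74 FPKM in the control samples. All valine samples lay well below all control samples. The log2 change was -0.61 ± 0.10 SE, a 1.52-fold fall in FPKM + 1 (limma adjusted p = 0.0117), the largest among the members. Ern1 passed with each of the 8 libraries left out in turn (limma adjusted p = 0.00973 to 0.0396) and missed the threshold with the replicate number as a block (0.0503). Its change ran with the lower Leydig, macrophage and stroma marker sums, and their part in it was not tested.

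Xbp1, the transcription factor that Ern1 activates, had 8.48, 6.94, 6.47 and 5.92 FPKM in the valine samples and 9.39, 9.73, 8.43 and 8.37 FPKM in the control samples. Valine replicate 1 lay within the control range and the others below it (log2 change -0.33 ± 0.11 SE, limma adjusted p = 0.0983, and 0.0472 with equal totals). Atf6, the sensor cleaved in the Golgi, averaged 6.34 ± 0.455 FPKM in valine and 7.28 ± 0.326 FPKM in control testes without overlap (limma adjusted p = 0.204), and its relative Atf6b 23.9 ± 1.57 FPKM in valine and 25.7 ± 2.36 FPKM in control testes with overlap. All 4 changes were negative, with a median of -0.25, and 10242 of the 22077 tested genes had a negative change.

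ERAD genes moved in both directions: Herpud1 rose, Sel1l and Edem1 fell, and 6 did not pass. Herpud1, a membrane protein that organises the HRD1 ubiquitin ligase complex, had 263.3, 242.8, 293.7 and 253.2 FPKM in the valine samples and 207.4, 211.1, 215.1 and 212.7 FPKM in the control samples. The lowest valine sample exceeded the highest control sample, and the change was 0.31 ± 0.060 SE on the log2 scale, a 1.24-fold rise in FPKM + 1 (limma adjusted p = 0.0183). The call was lost without valine replicate 1 (limma adjusted p = 0.0549), control replicate 1 (0.0579) or control replicate 2 (0.0504). It was also lost with equal totals (0.0825) and with quantile normalisation, where the change was 0.16 (0.178), and kept after removal of the length trend (0.0337). As for Ddit3, the part of the higher elongating spermatid and spermatocyte marker sums in the rise was not tested.

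Sel1l, the adaptor that links substrates to the HRD1 ligase, had 14.9, 13.5, 14.6 and 14.0 FPKM in the valine samples and 19.2, 18.1, 17.3 and 17.2 FPKM in the control samples, with no overlap. The log2 change was -0.31 ± 0.063 SE (limma adjusted p = 0.0212). Its call was lost without valine replicate 2 (limma adjusted p = 0.0571), valine replicate 4 (0.0520), control replicate 1 (0.0647) or control replicate 2 (0.0567), and with the trend on length removed the change was -0.19 (0.101). Sel1l did not pass with the replicate block either (limma adjusted p = 0.0606). Edem1, a lectin that hands misfolded glycoproteins to ERAD, had 8.91, 8.96, 8.94 and 8.50 FPKM in the valine samples and 10.3, 11.4, 11.9 and 10.2 FPKM in the control samples. Those groups did not overlap, and the change was -0.28 ± 0.072 SE (limma adjusted p = 0.0469), a call lost without each of the 8 libraries in turn (0.0565 to 0.112), without the expression filter (0.0763), with quantile normalisation (0.0538), after removal of the length trend (0.147) and with the replicate block (0.0948).

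Edem3, a related mannosidase, averaged 8.35 ± 0.631 FPKM in valine and 10.5 ± 1.51 FPKM in control testes without overlap (limma adjusted p = 0.116, and 0.0466 with equal totals). Edem2 had nearly equal means, 18.9 ± 1.54 FPKM in valine and 19.1 ± 1.33 FPKM in control testes. Syvn1 (HRD1), the ubiquitin ligase that both Herpud1 and Sel1l serve, averaged 22.9 ± 0.775 FPKM in valine and 22.8 ± 1.59 FPKM in control testes, a log2 change of 0.01 with a 95% interval of -0.14 to 0.15. The derlins, which help move substrates out of the ER, overlapped between groups. Derl1 averaged 32.5 ± 1.23 FPKM in valine and 32.3 ± 0.961 FPKM in control testes, Derl2 16.4 ± 0.932 FPKM in valine and 15.2 ± 0.645 FPKM in control testes, and Derl3 31.3 ± 7.15 FPKM in valine and 28.2 ± 1.39 FPKM in control testes.

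The general folding factors gave 1 rise, that of Manf, and no fall among 11. Manf, an ER protein that is released under ER stress and protects cells, had 114.4, 110.0, 111.0 and 115.6 FPKM in the valine samples and 92.4, 94.7, 94.0 and 94.6 FPKM in the control samples. Spread within groups was small beside the gap between them. The change was 0.26 ± 0.039 SE on the log2 scale, a 1.2-fold rise in FPKM + 1 (limma adjusted p = 0.00773), and it passed under all 14 alternatives run (0.00812 to 0.0403), with a change of 0.14 at the lowest. Exons of Manf on chromosome 9 overlap those of 4930524O07Rik and Dcaf1 on the opposite strand, by at most 166 and 146 bases per pair of exons. On the same strand they overlap those of Rbm15b by at most 14 bases. The rise of Manf also ran beside the higher elongating spermatid and spermatocyte marker sums, whose part was not tested.

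Hspa5 (BiP), the main ER chaperone and the usual readout of ER stress, had 275.7, 259.9, 324.8 and 256.3 FPKM in the valine samples and 276.3, 269.1, 276.2 and 245.1 FPKM in the control samples. Valine replicate 3 was above all others and the rest of the groups overlapped (log2 change 0.06, 95% interval -0.12 to 0.25, limma adjusted p = 0.685). Its partner Hsp90b1 (GRP94) averaged 259.4 ± 15.3 FPKM in valine and 275.7 ± 8.37 FPKM in control testes, and its exchange factor Hyou1 78.1 ± 2.07 FPKM in valine and 84.9 ± 11.1 FPKM in control testes. Neither passed. None of the 8 members with an ERSE in the window searched passed, with log2 changes from -0.11 (Canx) to 0.18 (Pdia6 and Creld2). Over all tested genes 8.73% passed, so none among 8 genes lies near that share and sets these members apart from no others. Herpud1, which carries the variant ERSE-II, rose, and Manf, which also rose, had no promoter to search.

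Creld2 and Sdf2l1, a co-factor of BiP, were higher in every valine sample than in every control sample without passing. Creld2 had 378.0, 408.0, 370.8 and 378.0 FPKM in the valine samples and 327.4, 319.9, 368.5 and 343.4 FPKM in the control samples (log2 change 0.18 ± 0.055 SE, limma adjusted p = 0.0874). Sdf2l1 had 113.3, 97.8, 97.96 and 119.6 FPKM in the valine samples and 90.5, 92.2, 85.4 and 92.9 FPKM in the control samples (log2 change 0.24 ± 0.075 SE, limma adjusted p = 0.0842). The gaps between the groups were narrow for both. Of the protein disulfide isomerases, Pdia6 averaged 120.4 ± 6.45 FPKM in valine and 106.0 ± 6.496 FPKM in control testes (limma adjusted p = 0.0977), Pdia3 296.2 ± 14.8 FPKM in valine and 284.1 ± 3.70 FPKM in control testes, and Pdia4 40.1 ± 1.71 FPKM in valine and 41.3 ± 3.94 FPKM in control testes.

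Calmegin (Clgn), calsperin (Calr3) and Pdilt are germ cell counterparts of calnexin, calreticulin and a disulfide isomerase, and in mouse each is needed for sperm surface proteins such as ADAM3. Clgn had 494.8, 473.8, 509.9 and 491.2 FPKM in the valine samples and 486.7, 468.3, 503.4 and 498.0 FPKM in the control samples. The groups overlapped throughout, and the log2 change was 0.01 with a 95% interval of -0.08 to 0.10, among the narrowest intervals of the members. With quantile normalisation the change of Clgn turned to -0.17 and passed (limma adjusted p = 0.0351).

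Calr3 had 195.0, 164.2, 127.4 and 208.8 FPKM in the valine samples and 157.7, 130.2, 140.8 and 168.7 FPKM in the control samples. Valine replicate 3 was below every control sample, and the spread within the valine group was larger than the difference between groups (log2 change 0.20, 95% interval -0.15 to 0.55, limma adjusted p = 0.462). Pdilt averaged 193.6 ± 13.2 FPKM in valine and 182.5 ± 10.3 FPKM in control testes, with valine replicate 3 again lowest of its group at 174.2 FPKM. The general forms overlapped as well, with Calr at 456.4 ± 26.0 FPKM in valine and 435.2 ± 25.0 FPKM in control testes and Canx at 102.5 ± 4.11 FPKM in valine and 111.2 ± 8.51 FPKM in control testes.

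Ratios of the germ cell form to the general form within each sample, which are nearly free of the scaling of the sample, were put to two-sided exact permutation tests with 70 possible arrangements, for which 0.0286 is the smallest p possible. The log2 ratio of Clgn to Canx was 2.26, 2.26, 2.23 and 2.26 in the valine samples and 2.05, 2.11, 2.06 and 2.29 in the control samples. Control replicate 4 was above all valine samples and the other control samples were below them, and the difference of 0.12 did not pass (exact p = 0.143, adjusted p = 0.286). For Calr3 over Calr the log2 ratio averaged -1.41 ± 0.388 in valine and -1.54 ± 0.192 in control testes (n = 4 each, exact p = 0.571), and for Pdilt over Pdia3 -0.61 ± 0.170 in valine and -0.64 ± 0.0950 in control testes (n = 4 each, exact p = 0.771). The sign of the Pdilt ratio difference turned without valine replicate 2 or 4 or control replicate 2 (-0.010, -0.014 and -0.021).

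**Figure D4:**
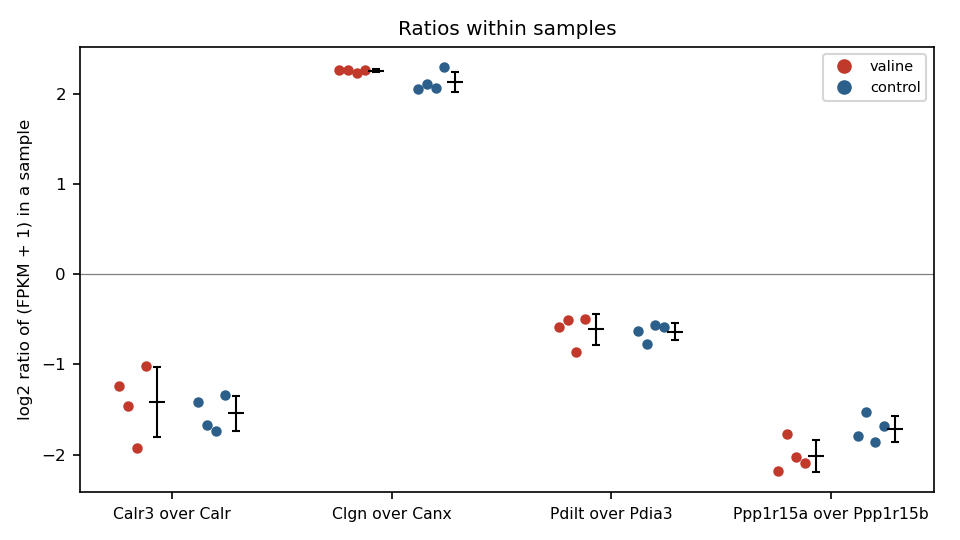
Log2 ratio of FPKM + 1 between paired members in each sample, with red points for valine and blue points for control and the mean with its SD beside them. The 4 valine samples lie close together for Clgn over Canx, and the groups overlap in all 4 pairs.

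Change and exon length were related across the members. Spearman's rho between the union of exons (GENCODE vM21) and the log2 change was -0.66 over the 39 tested members and -0.34 over 21676 tested genes with a length. Genes share libraries and are not independent, so no p is given. Among the members that rose, Ddit3, Herpud1 and Manf have 1713, 2333 and 3524 bases of exons, and among those that fell Edem1, Ern1 and Sel1l have 6453, 8173 and 8555 bases. After a smooth trend on length was removed from each sample, rho was -0.45 over the members and -0.02 over all genes, Manf and Herpud1 stayed higher and Ern1 lower in valine at the threshold, where 3% of 21676 genes were higher and 3.04% lower, and Ddit3, Sel1l and Edem1 did not pass. The part of length in these changes was not otherwise tested.

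**Figure D5:**
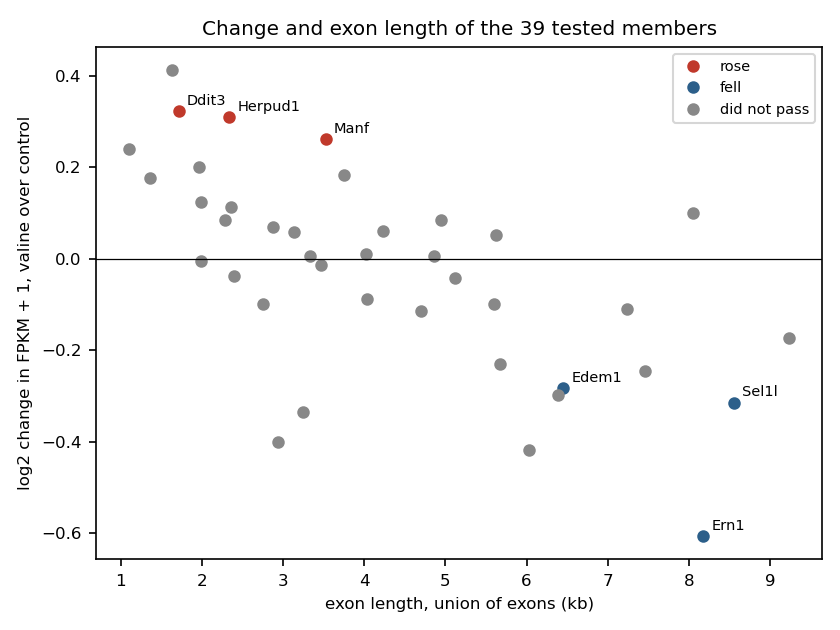
Log2 change in FPKM + 1 (valine over control) against the exon length of the 39 tested members, with red points for those that rose and blue points for those that fell. The 3 members that rose have under 4 kb of exons (at most 3524 bases) and the 3 that fell have at least 6453 bases.

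Other genes around ATF4, taken from a list of 30 linked to amino acid supply and stress, mostly did not pass. Of 25 tested, 4 fell and 1 rose (median -0.10). Eif4ebp1, a repressor of translation and an ATF4 target, had 12.8, 13.3, 11.3 and 13.8 FPKM in the valine samples and 9.43, 9.20, 8.50 and 10.1 FPKM in the control samples, without overlap (log2 change 0.42 ± 0.083 SE, limma adjusted p = 0.0208). It did not pass without valine replicate 1 (limma adjusted p = 0.0606), 2 (0.0574) or 4 (0.0536) or control replicate 1 (0.0575) or 2 (0.0553). Slc7a5 and Slc3a2, the chains of a carrier of large neutral amino acids, fell by 0.73 and 0.69 on the log2 scale (limma adjusted p = 0.00482 and 0.0110).

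Gpt2, a mitochondrial alanine transaminase, fell to 9.22 ± 1.76 FPKM in valine testes, against 31.7 ± 4.89 FPKM in control testes (log2 change -1.68 ± 0.15 SE, limma adjusted p = 0.00148). The falls of Gpt2, Slc7a5 and Slc3a2 ran beside the lower Leydig, macrophage and stroma marker sums, whose part was not tested. The median log2 changes of those lists were -1.55, -0.97 and -0.95. Ddr2, a collagen receptor of fibroblasts rather than a supplier of amino acids, fell to 0.501 ± 0.0524 FPKM in valine testes, against 1.97 ± 0.461 FPKM in control testes, beside the lower sums of stroma markers. Ddr2 is 1 of the 4 genes of this list counted as fallen, and it reached the filter mean of 1 FPKM only through its control samples. Asns, asparagine synthetase and a widely used ATF4 target, was named after its values were seen and averaged 134.7 ± 25.5 FPKM in valine and 134.8 ± 14.1 FPKM in control testes (limma adjusted p = 0.962).

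Of 16 tested genes of eIF2, eIF2B and their regulators, 2 fell and none rose (median 0.05). Eif2s3x, the X-linked gamma subunit of eIF2, had 5.53, 4.63, 5.93 and 4.76 FPKM in the valine samples and 9.43, 8.64, 8.97 and 8.28 FPKM in the control samples. The groups were well apart (log2 change -0.67 ± 0.093 SE, limma adjusted p = 0.00634), and the change passed under all 14 alternatives. The part of the lower Leydig, macrophage and stroma marker sums in this fall was not tested. Gcn1, the ribosome-bound activator of GCN2, fell to 34.2 ± 2.20 FPKM in valine testes, against 45.3 ± 4.66 FPKM in control testes (limma adjusted p = 0.0260). Its call was lost without valine replicate 1, 2 or 4 (0.0593, 0.0582 and 0.0584) or control replicate 1 or 3 (0.0673 and 0.0595) and after removal of the length trend (0.201).

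Among 26 tested ERAD genes outside the members, 3 rose and 1 fell (median 0.03). Selenos and Selenok, selenoproteins of the ER membrane that recruit the VCP segregase, rose by 0.25 and 0.26 on the log2 scale (limma adjusted p = 0.0108 and 0.0214), and the E2 enzyme Ube2j1 rose by 0.31 (0.0232). Nploc4, a VCP cofactor, fell by 0.30 (0.0429). With equal totals the 3 rises did not pass (limma adjusted p = 0.0568 for Selenos, 0.0908 for Selenok and 0.0690 for Ube2j1) and neither did they with quantile normalisation (0.118, 0.0611 and 0.119), nor did Selenos and Selenok after removal of the length trend (0.0797 and 0.0534). Selenok lost its call without valine replicate 1 or 4 or control replicate 1, 2 or 3 (0.0510 to 0.0671), and Ube2j1 without valine replicate 1 or 3 or control replicate 1, 2 or 4 (0.0529 to 0.0640). Nploc4 kept its call only without valine replicate 3 among the fits without 1 library and lost it in the other 7 (0.0562 to 0.111), without the expression filter (0.0745) and with the length trend removed (0.0935). With the replicate block the calls of Selenok and Nploc4 were lost (limma adjusted p = 0.0549 and 0.0550).

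Of 47 further tested folding and translocation factors of the ER, 5 fell and 3 rose (median -0.08). Fkbp9, a prolyl isomerase, fell to 11.6 ± 1.33 FPKM in valine testes, against 19.6 ± 0.639 FPKM in control testes (log2 change -0.71 ± 0.082 SE, limma adjusted p = 0.00380), and the disulfide isomerase Txndc5 to 10.8 ± 0.721 FPKM, against 17.5 ± 2.65 FPKM in control testes (0.0108). Both passed under all 14 alternatives. They fell beside the lower Leydig, macrophage and stroma marker sums, whose part was not tested. Ssr3, a subunit of the translocon-associated complex, fell by 0.45 and Txndc11 by 0.43 on the log2 scale, and P4hb, the classical protein disulfide isomerase, by 0.28 (limma adjusted p = 0.0140, 0.0329 and 0.0325). Erp29, an ER chaperone, rose by 0.28 (0.0213). Txndc11 lost its call without each of the 8 libraries (0.0512 to 0.0898), without the expression filter (0.0749), with quantile normalisation (0.0579) and with the length trend removed (0.108). P4hb lost it without each library except control replicate 4 (0.0547 to 0.0811) and without the expression filter (0.0530). Erp29 lost it without valine replicate 1, 3 or 4 or control replicate 1 or 2 (0.0504 to 0.0664) and with equal totals (0.0989). With the replicate block the calls of Ssr3, Txndc11 and Erp29 were lost (limma adjusted p = 0.0575, 0.0770 and 0.0668).

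Among 16 tested genes of other sensors, processing enzymes and the CREB3 family of ER-bound transcription factors, 2 fell and none rose (median -0.08). Creb3l1 had 2.08, 2.91, 1.31 and 1.145 FPKM in the valine samples and 5.76, 6.62, 6.71 and 5.78 FPKM in the control samples. That gap was wide, with a log2 change of -1.37 ± 0.19 SE (limma adjusted p = 0.00617). Creb3l2 averaged 1.07 ± 0.0980 FPKM in valine and 2.83 ± 0.603 FPKM in control testes (limma adjusted p = 0.00988). These factors drive secretory and matrix genes in cells such as fibroblasts, and the stroma, macrophage and Leydig marker sums were lower in the same samples. Their part in these changes was not tested.

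Of 14 genes of the sperm surface and of the handling of ADAM3 in mouse, 3 rose and 1 fell (median 0.04). Adam3 itself, named after its values were seen, averaged 970.0 ± 31.9 FPKM in valine and 935.2 ± 35.4 FPKM in control testes (limma adjusted p = 0.489). Cmtm2a, Ly6k and Cmtm2b rose by 0.38, 0.37 and 0.35 on the log2 scale (limma adjusted p = 0.00358, 0.00633 and 0.00561) and passed under all 14 alternatives. They moved beside the higher sums of elongating spermatid and spermatocyte markers, whose part was not tested, and Cmtm2a and Cmtm2b are close paralogs whose reads may be split. Adam1a fell by 0.23 (0.0337), a call lost without each library except valine replicate 1 and control replicate 2 (0.0674 to 0.0835), without the expression filter (0.0610), after removal of the length trend (0.246) and with the replicate block (0.0727).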

How the data were processed

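Total RNA of mouse testis was sequenced after a TruSeq library preparation, per the labels' protocols. The authors deposited FPKM values for 55414 Ensembl genes, from reads aligned with HISAT2 to GRCm39, per the submitters' processing notes. Tool versions, the quantifier, annotation release and strand setting are not stated there. Because FPKM depends on the mapped total and on gene length, a shift in either moves many values together. Columns were assigned by group name or abbreviation and replicate number (4 valine, 4 control).

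Symbols came from GENCODE vM21 and RefSeq GRCm38.p6 (52081 genes named), exon lengths from GENCODE vM21. The 22077 genes averaging 1 FPKM or more were tested on log2(FPKM + 1) with limma 3.58.1 in R 4.3.3, with treatment as the only term, a mean-variance trend and Benjamini-Hochberg adjustment at 0.05. Fold changes on this scale understate those of low genes. The fit was tested on simulated data. The members, gene lists and pairs were chosen with earlier results of these data known. All 42 members are named, and of each other list up to 6 genes past the threshold by size of change. Alternatives were a pseudocount of 0.1, no filter, equal totals, quantile normalisation, removal of a loess trend on exon length (span 0.3), the replicate number as a block, and leaving out each sample. Relative depth came from low values between 0.1 and 3 FPKM, and absolute depth was unknown, so no counting intervals are given. The labels give no batch.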

Additional observations from a re-analysis of the deposited data

Results flagged for a closer look

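In groups of 4 samples, a sample whose gap to its nearest neighbour exceeded Dixon's critical value, as a share of the group's range, stood far from the others. This was found in 12 of 158 groups checked, where chance flags about 1 in 20. Among the members, Eif2ak3 had 1.35 FPKM in control replicate 4, against 2.16 to 2.19 FPKM in the other control samples. Cebpg had 44.8 FPKM in valine replicate 4, against 38.1 to 38.6 FPKM in the other valine samples, and Edem1 had 8.50 FPKM in valine replicate 4, against 8.91 to 8.96 FPKM. The log2 ratio of Clgn to Canx was 2.23 in valine replicate 3, against 2.26 in each of the other valine samples.

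Among other genes, Ddr2 had 0.422 FPKM in valine replicate 1, against 0.525 to 0.529 FPKM in the other valine samples. P4hb had 51.4 FPKM in valine replicate 4, against 57.0 to 57.7 FPKM, and Cmtm2b 892.5 FPKM in valine replicate 2, against 986.8 to 1003 FPKM. Among sums of markers, control replicate 1 stood apart from the other control samples for adipocytes (93.5 FPKM, against 31.9 to 42.04 FPKM) and for stroma and myoid cells (160.7 FPKM, against 111.3 to 118.8 FPKM). The epididymis sum was 4.03 FPKM in valine replicate 3, against 5.51 to 5.66 FPKM in the other valine samples. The spermatogonia sum was 116.0 FPKM in control replicate 3, against 133.5 to 136.8 FPKM, and the spermatocyte sum 7419 FPKM in control replicate 4, against 6963 to 7012 FPKM in the other control samples.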

How the results depend on the processing

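No member that passed changed sign under any of the 14 alternatives. Of 84 recomputed values of the 6 members that passed, 49 stayed past the threshold and 35 did not, while 6 of 462 values of the other members passed in their own direction and 1 turned round and passed, that of Clgn with quantile normalisation (-0.17). Members higher in valine numbered 1 with equal totals and 1 with quantile normalisation, against 3, and members lower numbered 7 with equal totals and 1 after removal of the length trend, against 3. Without 1 library, 1 to 3 members were higher and 1 to 3 lower. With equal totals 11 members changed sign and with quantile normalisation 7.

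Over all genes, 954 were higher and 974 lower (49.5% higher). The counts were 568 higher and 713 lower without the filter (44.3% higher), 363 higher and 2022 lower with equal totals (15.2% higher), 398 higher with 1029 lower with quantile normalisation (27.9% higher), and 381 to 795 higher and 461 to 802 lower without 1 library. The cause of these shifts was not tested, except that without the filter more genes (42171) share the adjustment.

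Replicate numbers were not shown to pair samples: same-numbered samples had deviations that correlated by -0.02, -0.04, 0.10 and 0.11, and not every sample correlated best with its own number. With the replicate block, 3 members were higher and 0 lower (all genes: 581 higher, 489 lower), with limma adjusted p of 0.0503 for Ern1, 0.0606 for Sel1l and 0.0948 for Edem1. Other calls lost with it were those of Ssr3 (0.0575), Txndc11 (0.0770), Erp29 (0.0668), Selenok (0.0549), Nploc4 (0.0550) and Adam1a (0.0727).

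The log2 ratios, valine minus control, differed by -0.38 to -0.24 (Ppp1r15a over Ppp1r15b), 0.00011 to 0.30 (Calr3 over Calr), 0.10 to 0.18 (Clgn over Canx) and -0.021 to 0.11 (Pdilt over Pdia3) without 1 library. FPKM gives no absolute depth, and members under 1 FPKM rest on few fragments.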
